A study of Mus musculus with 36 samples.

Results

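The Bcl2 family of apoptosis regulators was followed in mouse blood progenitors over 24 h of TGF-β1. Its members here were 10 genes, Bcl2, Bid, Bmf, Bcl2l1, Bcl2l11, Mcl1, Bax, Bak1, Bbc3 and Bad, each taken as the probe set that carries the gene's symbol alone in the platform annotation. Of these, 9 were measured among the 19938 genes tested, and each had 1 probe set. No probe set carried the symbol of Bax alone, so this pore-forming effector is named only.

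Cells that die by the mitochondrial route of apoptosis do so after the outer mitochondrial membrane is opened and cytochrome c leaves. The effectors Bax and Bak1 form the pores, the anti-apoptotic members Bcl2, Bcl2l1 and Mcl1 hold the effectors and their activators in check, and the BH3-only members sense stress and tip this balance. In blood cells Bcl2, Mcl1 and Bcl2l11 are known to set how long a cell lives when survival cytokines run out.

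RNA was measured on 36 arrays of 2 blood progenitors, the common dendritic cell progenitors (CDP), whose offspring are dendritic cells, and the multipotent progenitors (MPP), from which CDP arise. Both were grown from mouse bone marrow with cytokines and sorted by FACS, and the labels give neither strain nor age of the mice. Of each cell type, 3 arrays came from each of 2, 4, 8, 12 and 24 h with TGF-β1 (recombinant, human, 10 ng/ml), and 3 from cells left without it, written as 0 h. No untreated arrays of 2 to 24 h were analysed, so that TGF-β1 cannot be told apart from time in culture. All groups shared the culture and the sort, and the study describes the replicates as biological.

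Levels are the deposited log2 values, and changes are log2 differences ± standard error (SE) from limma, with 3 arrays in each group. A gene passed the test where its p, adjusted over all 19938 genes, was under 0.01, and it was called where its log2 change was also 1 or more in size. In such bulk samples fewer cells of a type and less RNA per cell cannot be told apart. Levels of different genes come from different probes and are not set against each other.

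The data showed 3 of 9 measured members with a called change, all in CDP at 24 h, where 3.14% of all genes were called. The anti-apoptotic Bcl2 fell by 1.34 ± 0.07 and the BH3-only Bid fell by 1.77 ± 0.12, whereas the BH3-only Bmf rose by 1.08 ± 0.20. In MPP no member was called at any time (0.271% to 1.2% of all genes were), although Bmf passed the test at all 5 times, with changes of 0.61 to 0.92. Bbc3 and Bad passed in no comparison made. The members were chosen with earlier results of these data known, so counts of members beside shares of all genes are descriptions and not tests.

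The windows before the transcription starts of these 3 genes are shown because their RNA carries the findings, for Bcl2 and Bid downward and for Bmf upward. They are the 250 bases before the start in RefSeq on the build GRCm38.p6, given 5′ to 3′ on the minus strand, where all 3 genes lie. Bcl2 is at chr1:106714291-106714540 and Bid at chr6:120916825-120917074. Bmf has 3 RefSeq starts, and the window shown, of the start listed first, is at chr2:118544588-118544837. It is the most downstream of the 3, as the others have windows of 300 bases at chr2:118549637-118549936 and chr2:118547550-118547849. Capitals mark CAGAC, a core that Smad proteins bind, on either strand, where it reads GTCTG on the minus strand of the window.
Bcl2: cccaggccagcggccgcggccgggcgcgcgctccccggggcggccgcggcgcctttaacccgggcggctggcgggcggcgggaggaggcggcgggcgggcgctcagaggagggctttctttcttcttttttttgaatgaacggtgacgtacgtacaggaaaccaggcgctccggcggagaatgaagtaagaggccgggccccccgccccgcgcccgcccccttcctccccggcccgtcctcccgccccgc
Bid: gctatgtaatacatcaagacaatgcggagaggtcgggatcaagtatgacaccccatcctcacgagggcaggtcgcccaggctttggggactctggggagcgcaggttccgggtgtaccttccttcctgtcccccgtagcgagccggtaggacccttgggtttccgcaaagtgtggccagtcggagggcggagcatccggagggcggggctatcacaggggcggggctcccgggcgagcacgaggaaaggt
Bmf: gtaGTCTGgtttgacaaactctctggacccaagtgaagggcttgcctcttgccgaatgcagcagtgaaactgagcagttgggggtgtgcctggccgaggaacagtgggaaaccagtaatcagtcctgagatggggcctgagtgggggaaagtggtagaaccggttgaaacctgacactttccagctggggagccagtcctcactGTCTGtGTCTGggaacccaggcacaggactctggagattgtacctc
The Bmf window held CAGAC 3 times, with matches that begin 247, 46 and 40 bases before the start, and the windows of Bcl2 and Bid held none. GTCTAGAC (the palindromic Smad site), TGTTTAC (FoxO) and GCGGGGGCG (Egr) were searched on both strands too, and none of the 3 windows held any of them. The other 2 Bmf windows held none of the 4 motifs, and no match of one motif overlapped with a match of another in any member. Of 32851 mouse windows of 300 bases (250 before to 50 after the start), 49.6% held CAGAC, 3.65% TGTTTAC, 2.91% GCGGGGGCG and 0.213% GTCTAGAC. Among the other members, a Bcl2l11 window held TGTTTAC and GCGGGGGCG, as did separate Bbc3 windows, and at least 1 window of Bcl2l1, Bcl2l11, Bak1, Bbc3 and Bad held CAGAC. The matches are descriptions of the letters and not of bound sites. The Bcl2 bases were 74.8% G or C, those of Bid 63.6% and those of Bmf 55.6%.

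The anti-apoptotic Bcl2, which binds BH3-only proteins and effectors at the mitochondrion, was high in CDP until 12 h and low at 24 h. Its log2 level in CDP at 24 h was 11.29, 11.46 and 11.21, against 12.74, 12.84 and 12.40 at 0 h. The CDP arrays at 24 h lay below every other CDP array and below every MPP array. The fall was 2.54-fold (adjusted p = 3.94e-09) and was seen in 3 of 3 same-numbered pairs.

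Before 24 h the level of Bcl2 in CDP stayed closer to that of 0 h. It was 12.45, 12.70 and 12.09 at 2 h, 12.17, 12.42 and 12.09 at 4 h, 12.54, 12.71 and 12.42 at 8 h, and 12.37, 12.50 and 12.34 at 12 h. The arrays of each of these times overlapped with those of 0 h. A change of −0.44 ± 0.07 at 4 h passed (adjusted p = 0.00109), but it did not without replicate 1 (adjusted p = 0.108), replicate 2 (0.0263) or CDP 0 h replicate 1 (0.0109), nor in the fit with no replicate block (0.103). The changes at 2, 8 and 12 h were −0.25, −0.11 and −0.26 and did not pass (adjusted p = 0.0715, 0.385 and 0.0192).

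In MPP Bcl2 stood at 12.24, 12.16 and 12.17 at 24 h, against 12.00, 11.96 and 11.67 at 0 h. All 24 h arrays were above the 0 h arrays. The change of 0.31 ± 0.07 passed (adjusted p = 0.00756), but it was lost in 8 of 9 settings that left out 1 array or 1 replicate number (adjusted p up to 0.0742), among them the one without MPP 0 h replicate 3 (0.24, adjusted p = 0.0475). In the fit with no replicate block its adjusted p was 0.0425. At 4 h the MPP arrays lay below those of 0 h, at −0.25 (adjusted p = 0.0413).

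Ordered over the 12 groups, the mean level of Bcl2 was highest in CDP at 0 h and lowest in CDP at 24 h. Of the 11 pairs of neighbours in this order, 8 had overlapping arrays. The 3 that did not were MPP 24 h above MPP 12 h, MPP 2 h above MPP 4 h, and MPP 4 h above CDP 24 h.

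**Figure D1:**
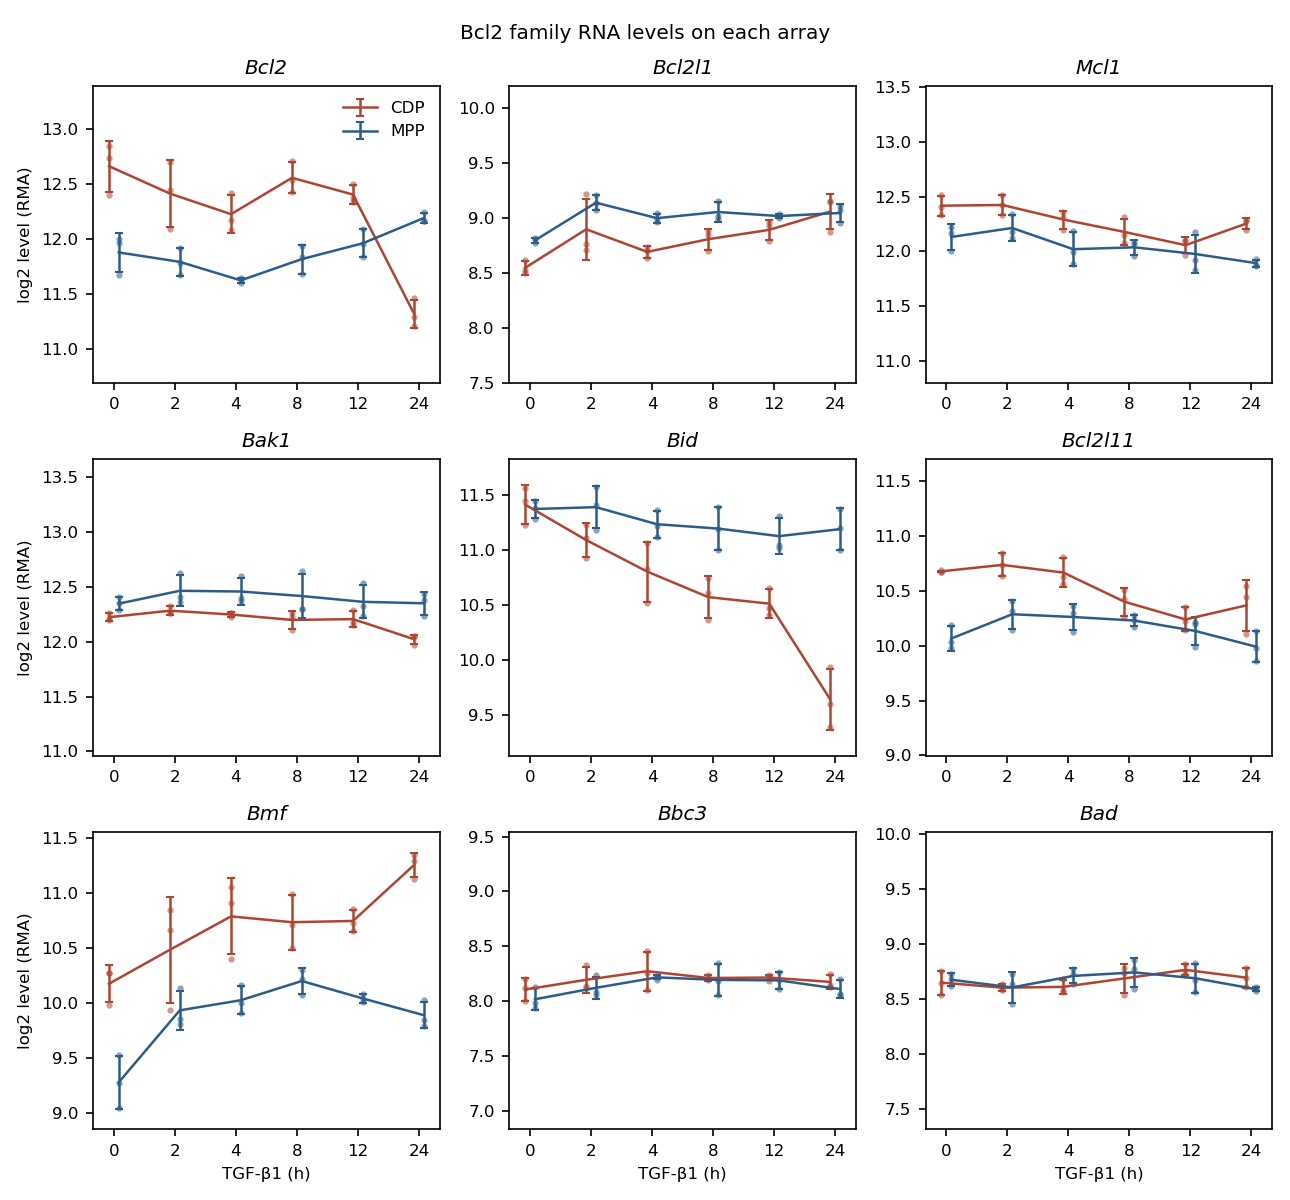
Log2 level (y axis, RMA values) of the 9 measured members in CDP and MPP over the hours of TGF-β1 (x axis), with arrays as points and lines with bars as means ± SD of 3 arrays (panels have equal heights in log2 units and evenly spaced times). In CDP at 24 h Bcl2 lies at 11.21 to 11.46 and Bid at 9.39 to 9.94, below their other groups, and Bmf lies at 11.13 to 11.35, above its other groups.

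Bcl2l1, which encodes the anti-apoptotic Bcl-xL, moved upward by small amounts in both cell types. In CDP it was at 9.15, 8.87 and 9.15 at 24 h, against 8.50, 8.62 and 8.52 at 0 h. The groups did not overlap, and the change of 0.51 ± 0.10 passed (adjusted p = 0.000979), except without replicate 1 (0.44, adjusted p = 0.0365). In CDP the arrays at 2, 4, 8 and 12 h also lay above those of 0 h, with changes of 0.35, 0.15, 0.26 and 0.35 that did not pass (adjusted p = 0.0661, 0.535, 0.0925 and 0.0229), although those at 2 and 12 h did in a fit on all 36 arrays (0.00591 and 0.00188).

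In MPP Bcl2l1 was already higher at 2 h, at 9.07, 9.13 and 9.21, against 8.77, 8.81 and 8.81 at 0 h. This change of 0.34 ± 0.05 passed (adjusted p = 0.000355), as did those at 8 h (0.26, adjusted p = 0.00185), 12 h (0.22, adjusted p = 0.00615) and 24 h (0.25, adjusted p = 0.00213). The change at 4 h was 0.20 (adjusted p = 0.0166). The MPP arrays at all 5 times lay above the 0 h arrays. The passes were lost in 3, 4, 8 and 6 of 9 settings that left out 1 array or 1 replicate number at 2, 8, 12 and 24 h, with adjusted p up to 0.0785. Those at 8, 12 and 24 h were lost in a fit on all 36 arrays too (adjusted p = 0.031, 0.0796 and 0.0397), and that at 12 h also with no replicate block, after centring each array on its median, and with an intensity trend (0.0149, 0.0149 and 0.015).

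Mcl1, the short-lived anti-apoptotic member that many blood progenitors need, dipped in CDP. It was at 11.97, 12.10 and 12.10 at 12 h, against 12.33, 12.41 and 12.51 at 0 h. These arrays did not overlap, and the change was −0.36 ± 0.05 (adjusted p = 0.000254), not passing without replicate 1 (adjusted p = 0.0177) or replicate 3 (0.015). At 8 h the change was −0.24 (adjusted p = 0.00704, lost in 8 of 10 settings that left out arrays, with no replicate block, 0.0397, and after a further quantile normalization, 0.0138), and at 24 h it was −0.16 (adjusted p = 0.038). In MPP at 24 h Mcl1 was at −0.24 and did not pass (adjusted p = 0.0145), with the 24 h arrays below those of 0 h.

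Bak1, the effector measured here, stayed within a narrow range. In CDP it was at 12.05, 11.97 and 12.04 at 24 h, against 12.26, 12.21 and 12.20 at 0 h. The groups did not overlap and the change of −0.20 ± 0.05 passed (adjusted p = 0.00816), but it was lost in 9 of 10 settings that left out arrays, after centring each array on its median (adjusted p = 0.0237) and after a further quantile normalization (0.0182). In MPP the changes of Bak1 were 0.00 to 0.12 and none passed.

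Bid is a BH3-only protein that, once cut by caspase 8, carries the death receptor signal to the mitochondrion. In CDP its mean was lower at each later time. Its log2 level was 11.23, 11.45 and 11.57 at 0 h, 10.93, 11.23 and 11.12 at 2 h, 10.52, 10.83 and 11.07 at 4 h, 10.61, 10.36 and 10.75 at 8 h, 10.41, 10.48 and 10.66 at 12 h, and 9.39, 9.94 and 9.60 at 24 h. The arrays of 2 h overlapped with those of 0 h, and from 4 h on they lay below them.

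The change of Bid in CDP was −0.32 ± 0.12 at 2 h and did not pass (adjusted p = 0.203). At 4 h it was −0.61 (adjusted p = 0.00408), a pass that was lost in 7 of 10 settings that left out arrays (adjusted p up to 0.0978) and in the fit with no replicate block (0.0286). At 8 and 12 h Bid was at −0.84 and −0.90 (adjusted p = 0.000181 and 7.34e-05), and at 24 h it had fallen 3.42-fold (−1.77 ± 0.12, adjusted p = 4.57e-08). The passes at 8, 12 and 24 h held in all 10 settings that left out an array or a replicate number. At 24 h the change over these settings was −1.92 to −1.68.

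In MPP the level of Bid was 11.00, 11.20 and 11.38 at 24 h, against 11.29, 11.45 and 11.39 at 0 h. The groups overlapped. The change was −0.18 ± 0.06 and did not pass (adjusted p = 0.0446), and the only pass in MPP was at 12 h (−0.25, adjusted p = 0.00849), which was lost with no replicate block (0.345), in the fit on all 36 arrays (0.116) and in 7 of 9 settings that left out arrays. In the order of the 12 groups 10 of 11 neighbouring pairs overlapped, and the exception was CDP 12 h above CDP 24 h.

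Bcl2l11 encodes Bim, a BH3-only activator that is held down by cytokine signals. In CDP it was at 10.14, 10.22 and 10.36 at 12 h, against 10.67, 10.68 and 10.67 at 0 h. These arrays did not overlap, and the change was −0.44 ± 0.09 (adjusted p = 0.00412), although in 9 of 10 settings that left out arrays it did not pass (adjusted p up to 0.0631). At 24 h it was at −0.31 (adjusted p = 0.0235). In MPP no change of Bcl2l11 at a single time passed, with values of −0.07 to 0.22.

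Bmf is a BH3-only protein that binds Bcl2 and its relatives and is tied to the cytoskeleton through dynein light chain. It was higher after TGF-β1 in both cell types. In CDP it was at 11.13, 11.35 and 11.29 at 24 h, against 9.98, 10.27 and 10.27 at 0 h. The CDP arrays at 24 h lay above all other arrays of the series. The rise was 1.08 ± 0.20, or 2.12-fold (adjusted p = 0.000812), and did not pass without replicate 1 (1.05, adjusted p = 0.0231) or replicate 2 (1.08, adjusted p = 0.0153).

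Between 2 and 12 h the level of Bmf in CDP was 10.66, 10.85 and 9.94 at 2 h, 10.40, 10.91 and 11.06 at 4 h, 10.71, 10.50 and 10.99 at 8 h, and 10.65, 10.73 and 10.85 at 12 h. At 4, 8 and 12 h all arrays were above those of 0 h, and at 2 h replicate 3 was below them. The changes were 0.31, 0.61, 0.56 and 0.57 and did not pass (adjusted p = 0.617, 0.0844, 0.0785 and 0.0693). Without CDP 2 h replicate 3 they were 0.66, 0.61, 0.56 and 0.57 and passed at all 4 times (adjusted p = 0.00586, 0.00149, 0.00182 and 0.0013).

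That array stood apart from its group in a list of interferon-stimulated genes, of which 12 of 15 were measured. Their mean log2 level was 12.6 on CDP 2 h replicate 3, against 7.95 and 7.96 on the other CDP 2 h arrays and 7.53 to 10.3 on the remaining arrays of the series. Bcl2l1 was high on the same array (9.22, against 8.71 and 8.76). Without the array the change of Bcl2l1 at 2 h was 0.21 (adjusted p = 0.264), and at 12 h its change of 0.35 passed (adjusted p = 0.00281). The part of the interferon genes in these values was not tested.

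In MPP Bmf was at 9.79, 10.02 and 9.85 at 24 h, against 9.27, 9.52 and 9.04 at 0 h. The arrays of every later time lay above those of 0 h. The changes were 0.66, 0.75, 0.92, 0.76 and 0.61 at 2, 4, 8, 12 and 24 h (SE 0.10 each, adjusted p = 0.000671, 0.000153, 1.14e-05, 7.25e-05 and 0.000465), all in 3 of 3 same-numbered pairs. Without replicate 1 the changes at 2, 4, 12 and 24 h did not pass (adjusted p = 0.0323, 0.0152, 0.0148 and 0.0221), and in the fit on all 36 arrays those at 2 and 24 h did not (0.0222 and 0.016). In the order of the 12 groups MPP 0 h was the lowest and CDP 24 h the highest, and 9 of 11 neighbouring pairs overlapped. The exceptions were CDP 24 h above CDP 4 h and MPP 24 h above MPP 0 h.

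Bbc3, which encodes the p53-induced BH3-only protein Puma, ranged from 7.94 to 8.46 over all 36 arrays. In MPP its changes were 0.09 to 0.20 and did not pass, with the lowest adjusted p at 4 h (0.0169). In CDP at 24 h the change was 0.07 with a 95% interval of −0.09 to 0.23. Bad, a BH3-only protein that growth factor signals keep inactive by phosphorylation, ranged from 8.45 to 8.86. Its change in CDP at 24 h was 0.04 (95% interval −0.11 to 0.20) and in MPP −0.09 (−0.22 to 0.05).

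Counted over the 9 measured members, CDP at 24 h had 3 called, against 3.14% of all genes tested, and 5 passed, against 19.8%. The passes were 2 upward, Bmf and Bcl2l1, against 7.83% of all genes, and 3 downward, Bcl2, Bid and Bak1, against 11.9%. The median change was −0.16 against 0.00 over all genes. The 24 h arrays did not overlap with those of 0 h for 7 of 9 members, against 35.9% of all genes. In CDP at 2, 4, 8 and 12 h no member was called (0.326%, 0.702%, 1.27% and 1.86% of all genes), and 0, 2, 2 and 3 passed (1.93%, 4.84%, 9.51% and 11.7%). At an unadjusted p under 0.05 the counts were 3, 5, 5 and 6. The share of all genes under that looser rule was not counted, and the shares above do not apply to it. Without CDP 2 h replicate 3 the passes at 12 h were 6. The shares of all genes given here include dim genes, whereas the members lay at the 52.3 to 96.5 percentile of mean level. A filter that kept the 9969 genes with a highest group mean over 8.23 left all measured members in. In that fit 597 of the 9969 genes were called and 3835 passed in CDP at 24 h. In MPP at 24 h 1838 passed. Between CDP and MPP 2570 passed at 0 h and 4604 at 24 h, and 1987 did for the difference of changes at 24 h. Each of these is a larger share than that over all genes, so the shares of all genes given here are low for genes as bright as the members.

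In MPP no member was called at 2, 4, 8, 12 or 24 h, against 0.271%, 0.416%, 0.657%, 0.737% and 1.2% of all genes. The passes were 2, 1, 2, 3 and 3, against 3.27%, 5.04%, 9.17%, 8.31% and 9.71%. At an unadjusted p under 0.05 the counts of members were 3, 6, 5, 5 and 5, and the share of all genes was not counted. Over the whole course, the moderated F-test passed 4 of 9 members in CDP (Bcl2, Bid, Mcl1 and Bcl2l11, against 20.6% of all genes) and 4 of 9 in MPP (Bcl2, Bmf, Bcl2l1 and Bcl2l11, against 12.9%). Bmf in CDP missed the threshold in this test (adjusted p = 0.013).

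The comparisons of each time share the 0 h arrays of their cell type, and some of these arrays stood apart in the interferon-stimulated genes. These averaged 9.24, 8.14 and 9.77 in CDP at 24 h, against 8.20, 7.99 and 10.3 in CDP at 0 h, where replicate 3 was the high array. Without CDP 0 h replicate 3 the changes in CDP at 24 h were −1.40 for Bcl2, −1.75 for Bid and 1.12 for Bmf, and all 3 passed (adjusted p = 3.78e-08, 9.9e-07 and 0.00348). On CDP 4 h replicate 1 the interferon-stimulated genes averaged 10.3, and on MPP 0 h replicate 3 they averaged 8.82, against 7.73 and 7.68 on the other MPP 0 h arrays. Markers of other blood cells moved along the course as well. At 24 h in CDP 8 of 9 measured monocyte and macrophage markers were lower and none was higher, with a median change of −1.57, and their mean level was 8.46 to 8.83 at 24 h, against 10.2 to 10.6 at 0 h. Of 12 dendritic lineage markers 8 were higher and 2 lower. Of 11 neutrophil markers 1 was higher and 3 lower, and of 10 stem and multipotent progenitor markers 3 were higher and 3 lower. In MPP at 24 h 6 of 9 monocyte and macrophage markers were lower. Their part in the changes of the Bcl2 family was not tested.

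Whether CDP and MPP responded differently was tested as the CDP change minus the MPP change. At 24 h Bcl2 and Bid differed and were called, and no other member passed (2 of 9, against 1.85% of all genes called and 10.1% passed). For Bcl2 the change was −1.34 in CDP and 0.31 in MPP, a difference of −1.66 ± 0.11 (95% interval −1.87 to −1.44, adjusted p = 1.96e-11). For Bid it was −1.77 in CDP and −0.18 in MPP, a difference of −1.59 ± 0.14 (−1.87 to −1.31, adjusted p = 3.57e-09). Both held in all 16 settings that left out an array or a replicate number.

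For Bmf the rise at 24 h was 1.08 in CDP and 0.61 in MPP, and the difference of 0.47 did not pass (95% interval −0.02 to 0.96, adjusted p = 0.229). The differences of the remaining 6 members at 24 h were −0.23 to 0.26 and did not pass either (adjusted p = 0.082 to 0.922).

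**Figure D2:**
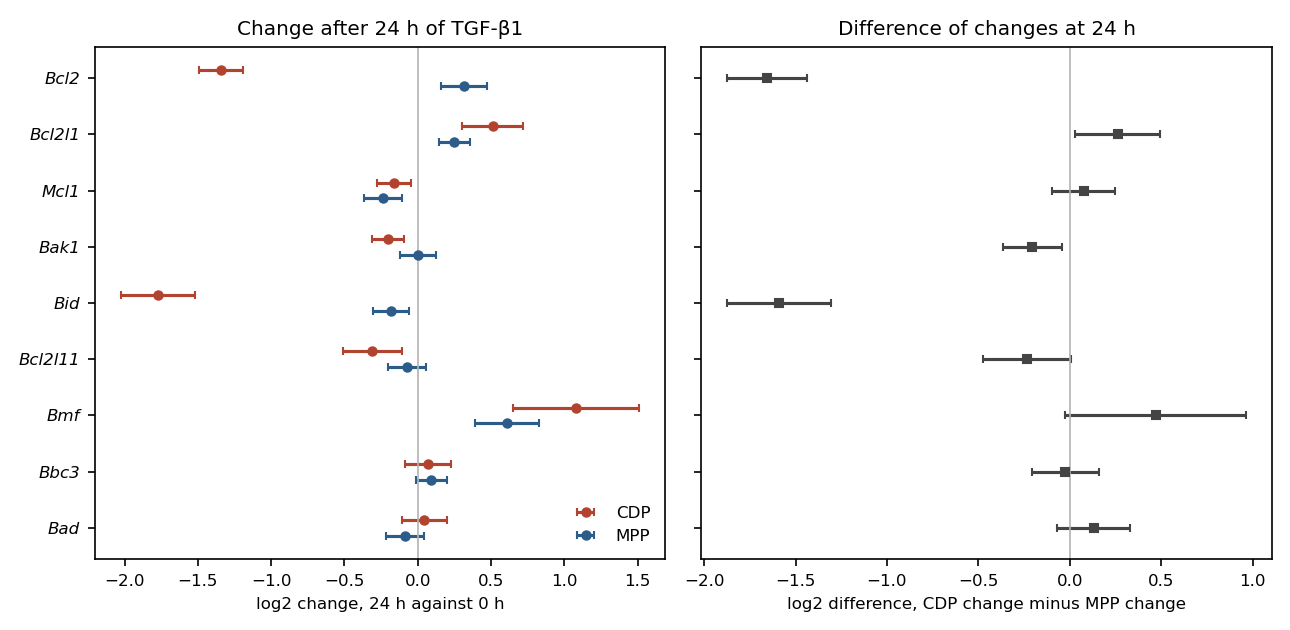
Log2 change of each measured member at 24 h of TGF-β1 against 0 h (x axis) in CDP and MPP (left), and the CDP change minus the MPP change (right), as limma estimates with 95% intervals. Bcl2 (−1.34 and 0.31) and Bid (−1.77 and −0.18) are the members whose difference, −1.66 and −1.59, passed.

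For Bid the differences at the earlier times were −0.34, −0.47, −0.66 and −0.65 at 2, 4, 8 and 12 h, of which those at 8 and 12 h passed (adjusted p = 0.00449 and 0.00323). Bcl2l11 also differed at 12 h (−0.51 ± 0.12, adjusted p = 0.00718), where its change was −0.44 in CDP and 0.07 in MPP. Thus 1 of 9 members passed at 8 h (1.88% of all genes) and 2 at 12 h (3.13%), with none called (0.411% and 0.727%), and 2 and 4 had an unadjusted p under 0.05. At 2 and 4 h none passed or was called (0.11% and 0.607% of all genes passed, 0.0301% and 0.14% were called). At each of these times 1 member, Bid, had an unadjusted p under 0.05. The share of all genes with an unadjusted p under 0.05 was not counted at any of these times. The passes at 8 and 12 h depended on single arrays and on the replicate block. Without MPP 0 h replicate 3 Bid was at −0.58 at 8 h (adjusted p = 0.0245) and −0.57 at 12 h (0.0175), and Bcl2l11 at −0.42 (0.0376). With no replicate block the adjusted p was 0.156 and 0.114 for Bid and 0.0564 for Bcl2l11. After centring each array on its median it was 0.0114 for Bid at 8 h and 0.0251 for Bcl2l11.

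**Figure D3:**
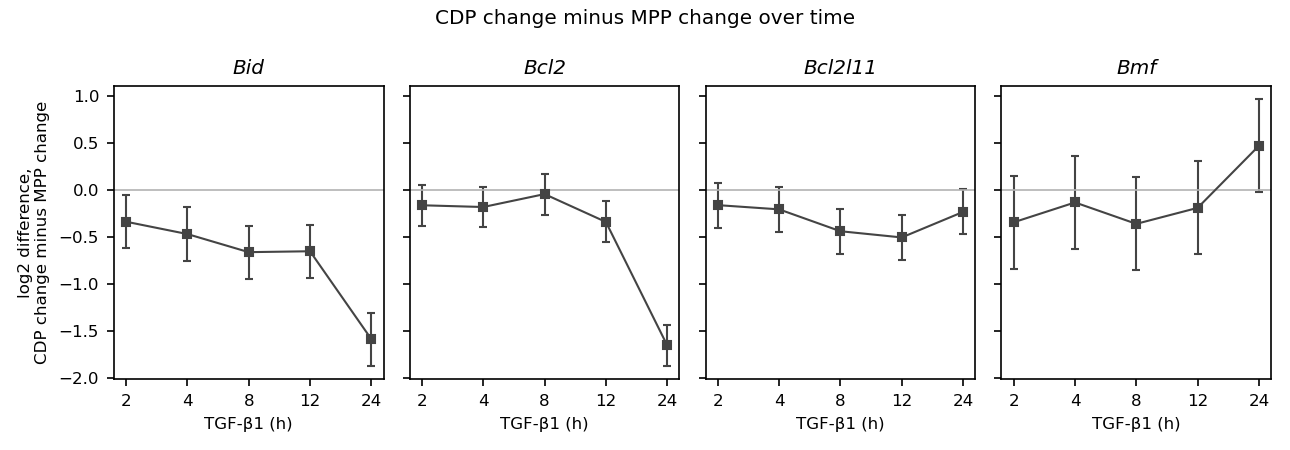
Log2 difference between the CDP change and the MPP change (y axis) over the hours of TGF-β1 (x axis) for Bid, Bcl2, Bcl2l11 and Bmf, as limma estimates with 95% intervals. Bid lies below 0 at all 5 times, Bcl2 is near 0 at 8 h (−0.05) and at −1.66 at 24 h, and the intervals of Bmf include 0 at every time.

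Before TGF-β1 the cell types already differed in 3 members, none called (limma, 2.81% of all genes called and 14.1% passed). An unadjusted p under 0.05 was found for 5 members, and the share of all genes under that rule was not counted. At 0 h Bcl2 was at 12.74, 12.84 and 12.40 in CDP, against 12.00, 11.96 and 11.67 in MPP, a difference of 0.79 ± 0.12 (adjusted p = 1.65e-05). Bmf was at 9.98, 10.27 and 10.27 in CDP, against 9.27, 9.52 and 9.04 in MPP, a difference of 0.90 ± 0.17 (adjusted p = 0.000236). Bcl2l11 was at 10.67, 10.68 and 10.67 in CDP, against 10.03, 10.19 and 9.97 in MPP, a difference of 0.61 ± 0.10 (adjusted p = 2.45e-05).

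In each of these 3 genes all CDP arrays lay above all MPP arrays, and the passes held in all 10 settings that left out arrays. Non-overlapping arrays were found for 6 of the 9 members at 0 h, against 40.2% of all genes. Mcl1 was at 0.28 and did not pass (adjusted p = 0.0145), but it did with the replicate number as a block shared by both cell types (adjusted p = 0.00934). Bcl2l1 was at −0.25 and did not pass (adjusted p = 0.0448, and 0.0227 with that block), but it did without CDP 2 h replicate 3, which enters this fit through the estimate of the spread (0.00488). The difference of Bid was 0.04 (95% interval −0.26 to 0.34).

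At 24 h of TGF-β1, 6 of 9 members differed between CDP and MPP, 2 of them called (5.06% of all genes called, 28.4% passed). Bcl2 was at 11.29, 11.46 and 11.21 in CDP, against 12.24, 12.16 and 12.17 in MPP, and was thus lower in CDP (−0.87 ± 0.12, adjusted p = 1.75e-06), the opposite of its order at 0 h. Bid was at 9.39, 9.94 and 9.60 in CDP, against 11.00, 11.20 and 11.38 in MPP (−1.55 ± 0.15, 2.93-fold, adjusted p = 9.12e-10). Bmf was at 11.13, 11.35 and 11.29 in CDP, against 9.79, 10.02 and 9.85 in MPP (1.37 ± 0.17, 2.58-fold, adjusted p = 2.51e-07). For these 3 genes the groups did not overlap, which was so for 5 of 9 members, against 50.8% of all genes.

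Smaller differences at 24 h were those of Mcl1 (0.36, adjusted p = 0.00105), Bcl2l11 (0.38, adjusted p = 0.0033) and Bak1 (−0.33, adjusted p = 0.00235), which did not pass in 2, 6 and 5 of 11 settings that left out arrays. Bcl2l1 was at 0.01 (95% interval −0.17 to 0.19), Bad at 0.11 and Bbc3 at 0.07. Cell type markers differed as well. At 24 h 10 of 11 neutrophil markers (median −4.28) and 7 of 9 mast cell and basophil markers (median −1.62) were lower in CDP. Of 12 dendritic lineage markers 9 were higher and 1 lower. Of 9 measured monocyte and macrophage markers 0 were higher and 2 lower at 24 h, and 1 was higher and 2 lower at 0 h. At 0 h 9 of 11 neutrophil and 6 of 9 mast cell and basophil markers were lower in CDP, and 10 of 12 dendritic lineage markers were higher, among them Flt3. Of 10 stem and multipotent progenitor markers 7 were lower in CDP at 0 h, and at 24 h 7 were lower and 1 higher. Their part in the differences between CDP and MPP was not tested.

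Genes around the family were counted over 6 lists of apoptosis genes, by the genes that passed at 24 h (19.8% of all genes in CDP and 9.71% in MPP). Among 14 measured relatives of the family, CDP at 24 h had 1 higher and 2 lower, and MPP 0 higher and 2 lower. Bnip3, a BH3-like protein of mitophagy that low oxygen induces, averaged 10.51 in CDP at 24 h and 12.23 at 0 h and was called (−1.72 ± 0.28, adjusted p = 0.00024), though it did not pass without replicate 3 (−1.60, adjusted p = 0.0163) or with no replicate block (0.032). In MPP Bnip3 was at −0.78 ± 0.11 (adjusted p = 7.65e-05, but 0.0805 with no replicate block and 0.0209 in the fit on all 36 arrays). Pmaip1, which encodes the BH3-only protein Noxa and is named here after its values were seen, was at −0.62 ± 0.14 in CDP (adjusted p = 0.00338) and −0.78 ± 0.05 in MPP (adjusted p = 4.86e-08). In CDP it did not pass without replicate 1 (adjusted p = 0.0385), replicate 2 (0.017) or CDP 0 h replicate 2 (0.0263).

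Of 14 caspase and apoptosome genes 3 were higher and 5 lower in CDP at 24 h, and 1 higher and 2 lower in MPP. The executioner caspase gene Casp6 had the largest change, −0.97 ± 0.16 in CDP (adjusted p = 0.000278, and 0.0112 without replicate 1) and −0.55 ± 0.06 in MPP (adjusted p = 8.53e-06, and 0.0496 with no replicate block). In the death receptor arm, upstream of Bid, 0 of 9 were higher and 1 lower in CDP, and 0 higher and 2 lower in MPP. Fas, a death receptor gene, averaged 6.76 in MPP at 24 h and 7.95 at 0 h and was called (−1.18 ± 0.20, adjusted p = 0.000583). Its change was smaller than 1 without replicate 3 (−0.88) or MPP 0 h replicate 3 (−0.83), and without replicate 2 it did not pass (−1.28, adjusted p = 0.0115). In CDP Fas was at −0.07 (adjusted p = 0.907).

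Of 13 partners of the members, 4 were lower and 0 higher in CDP and none passed in MPP. The largest change in CDP was that of Vdac3, a channel of the outer mitochondrial membrane (−0.29 ± 0.05, adjusted p = 0.000176, and 0.0277 without replicate 1). Of 10 transcription factors of the members 3 were higher and 3 lower in CDP, and 1 higher and 1 lower in MPP. Foxo1, a factor that can switch on Bcl2l11 in other settings, rose by 0.84 ± 0.10 in CDP (adjusted p = 1.32e-05) and was at 0.51 ± 0.10 in MPP (adjusted p = 0.00174, and 0.0149 with no replicate block). Its pass in MPP was also lost in 4 of 9 settings that left out arrays (adjusted p up to 0.0227). Of 10 p53 targets outside the family 0 were higher and 4 lower in CDP, and 1 higher and 1 lower in MPP. Sesn2, a stress-induced regulator of nutrient signalling, was at −0.67 ± 0.10 in CDP (adjusted p = 0.000117). In MPP Sesn2 was at −0.67 ± 0.14 (adjusted p = 0.00287, and 0.0839 with no replicate block). Its pass in MPP was also lost in 5 of 9 settings that left out arrays (adjusted p up to 0.0762). The list medians were −0.29 to 0.00 in CDP and −0.04 to 0.03 in MPP.

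**Figure D4:**
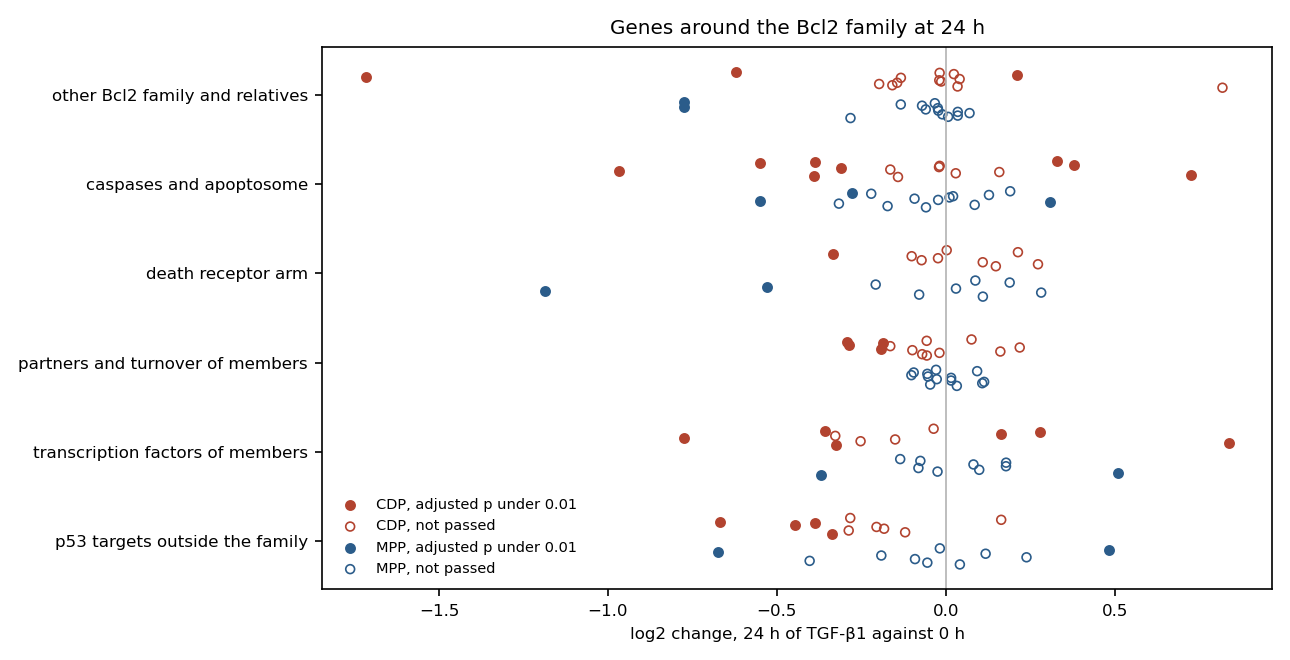
Log2 change at 24 h of TGF-β1 against 0 h (x axis) of each measured gene of 6 lists around the Bcl2 family, in CDP (upper rows of points) and MPP (lower rows), with filled points for an adjusted p under 0.01. Bnip3 in CDP (−1.72) and Fas in MPP (−1.18) are the only genes past a log2 change of 1.

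For the 3 called members the genes with the most similar pattern were looked for over the 12 group means, among 2097 genes whose means span 1 or more on the log2 scale. For Bcl2 these were Slc16a7, Ece1 and Nos1ap (Pearson's r of 0.964, 0.924 and 0.912). For Bid they were Hspd1, Polr1e and Smad3 (0.980, 0.978 and 0.978). For Bmf they were Mical1, Otulinl and Lrrk1 (0.976, 0.970 and 0.969). The 12 means come from separate arrays with the same replicate numbers and the same normalization, and these values are descriptions.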

How the data were processed

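RNA of 36 samples of cultured mouse CDP and MPP was hybridised to Affymetrix Mouse Gene 1.0 ST arrays. The authors deposited log2 intensities, 1 per probe set, which the submitters' processing notes credit to Affymetrix Power Tools and RMA (background correction, quantile normalization and probe summary) with no version. The genome build and annotation version of the array are not given in the sources used here. RMA sets all arrays to 1 distribution before the probe summary, so changes are relative to other genes, and those of dim genes are compressed. The medians of the deposited arrays still ranged from 7.49 to 7.66. The study's own FARMS summary and betr time course test were not used.

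Of 35556 probe sets 21789 carried 1 gene symbol, 1621 several and 12146 none. Only the first kind was used, at 1 probe set per gene (of several, that of highest mean level), which left 19938 genes. The Entrez identifiers of 21698 probe sets matched the RefSeq gene table, and 0 symbols needed an update. Arrays of 1 group correlated at 0.989 or more, and the median SD within a group was 0.0637 to 0.0817. The number of arrays limits the precision.

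Each time was tested against 0 h within a cell type on its 18 arrays (lmFit and eBayes of limma 3.58.1, run in R 4.3.3), with the replicate number as a block. CDP and MPP were compared on all 36 arrays with no block, and the difference of changes on all 36 arrays with the number within cell type as a block. Tests were two-sided, with Benjamini-Hochberg adjustment over all genes. The numbers come from the sample labels. Residuals of same-numbered arrays correlated with those at 0 h above 0.1 in 15 of 15 cases in MPP (lowest 0.189) and in CDP (lowest 0.212), so the block was kept within a cell type. Between cell types 11 of 18 were above 0.1 (lowest −0.08), among them all 6 at 0 and 24 h (lowest 0.148). The labels do not say that a number links cultures of both cell types, so a shared block was run as an alternative. The comparison of CDP and MPP with no block took same-numbered arrays of a cell type as independent. Its p-values may thus be too small. If the numbers do link the cell types, leaving that link out may instead make them too large. With the shared block 3317 genes passed at 0 h and 6202 at 24 h, against 2809 and 5659 without it. The fits were also run on simulated data with independent noise and no replicate effect, which cannot test the block.

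All 10 members are described. Of the pathway lists, genes called at 24 h are named, or else the gene with the largest change in CDP at 24 h. For each called member the 3 most correlated genes are named. Pmepa1 and Smad7, targets of Smad signalling, served as a check of the treatment: at 24 h Pmepa1 was 4.20 ± 0.23 above 0 h in CDP and 4.13 ± 0.12 in MPP, and Smad7 1.74 ± 0.08 and 1.56 ± 0.09. The members and lists were chosen with earlier results of these data known. The arrays named 8 h follow their titles, although a protocol text has 6 h in that place. RefSeq promoter windows were found for 10 of 10 members. Alternatives were no replicate block, median centring, a further quantile normalization, a filter on dim genes, the mean of all probe sets of a gene, a fit on all 36 arrays, an intensity trend with robust variance, and leaving out each array or replicate number.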

Additional observations from a re-analysis of the deposited data

Results flagged for a closer look

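The changes of 3 members differed between CDP and MPP by a test of the difference itself, in log2 units and as CDP minus MPP. For Bid this difference was −0.66 at 8 h (adjusted p = 0.00449), −0.65 at 12 h (adjusted p = 0.00323) and −1.59 at 24 h (adjusted p = 3.57e-09). For Bcl2 it was −1.66 at 24 h (adjusted p = 1.96e-11), and for Bcl2l11 it was −0.51 at 12 h (adjusted p = 0.00718). The differences at 24 h held in all 16 settings that left out arrays, whereas those of Bid at 8 and 12 h and of Bcl2l11 at 12 h were lost in 10, 7 and 12 of 16 (limma).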

How the results depend on the processing

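Followed through the alternatives were 47 changes of members, those that passed and some of Bmf, Bcl2l1 and Mcl1 that did not. None of these turned its direction, but only median centring, a further quantile normalization and leaving out arrays could alter a log2 change. The other alternatives left the log2 changes of the members as they were. Most of the changes followed were also chosen as passes, so the lack of turns is a weak check. Other changes that did not pass were not followed. With no replicate block the members that passed were 1 in MPP at 12 h (3 with the block), 0 and 1 in CDP at 4 and 8 h (2 each), and 0 at both 8 and 12 h for the difference of changes (1 and 2). With a block shared by the cell types 4 passed between CDP and MPP at 0 h (3 without it, Mcl1 being the one gained). The block changed no other count of members by over 1.5 times. Median centring gave 0 and 1 for the difference at 8 and 12 h, a further quantile normalization 1 in CDP at 8 h, and the fit on all 36 arrays 1 each in MPP at 2, 8 and 12 h and 1 in CDP at 2 h.

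Leaving out single arrays or replicate numbers, the members that passed were 0 to 2, 0 to 2, 1 to 3, 0 to 2 and 0 to 3 in MPP at 2, 4, 8, 12 and 24 h, with 0 to 1 called at 8 h. In CDP they were 0 to 1, 0 to 3, 1 to 3, 1 to 6 and 2 to 5, with 2 to 3 called at 24 h. Between CDP and MPP they were 3 to 4 at 0 h (0 to 1 called) and 4 to 6 at 24 h. For the difference of changes they were 0 to 1 at 8 h, 0 to 2 at 12 h and 2 to 2 at 24 h.

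Over all genes, the block moved the counts that passed as well. With no block they were 265, 356, 780, 772 and 1047 in MPP (651, 1004, 1828, 1656 and 1935 with it), 221, 569 and 1240 in CDP at 2, 4 and 8 h (385, 965 and 1896), and 5, 34, 110, 237 and 1032 for the difference (22, 121, 375, 625 and 2007), of which 17 and 53 were called at 4 and 8 h (28 and 82). In the fit on all 36 arrays 709 and 1452 passed in CDP at 2 and 4 h (385 and 965). Leaving out arrays moved these counts, and with them the shares of all genes that passed, to 185 to 684, 305 to 963, 608 to 1714, 575 to 1584 and 819 to 1775 in MPP, and to 100 to 405, 238 to 1315, 632 to 2313, 852 to 2755 and 1848 to 4381 in CDP (2329 and 3939 at 12 and 24 h with all arrays). Between CDP and MPP they were 1498 to 3011 at 0 h and 2974 to 5885 at 24 h (2809 and 5659 with all arrays). For the difference they were 2 to 38, 19 to 190, 85 to 491, 170 to 777 and 756 to 2268, with 0 to 10, 14 to 35 and 42 to 93 called at 2, 4 and 8 h (6, 28 and 82 with all arrays). With 3 arrays a group, small changes of these members could be missed.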
